A study of Mus musculus with 6 samples.

Results

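The voltage-gated sodium and calcium channel genes were examined in RNA from the visual cortex of mice that lacked *Chrdl1* (the KO group) and of wild-type mice (WT). The members were the 30 rows, of 24453 in the deposited table, whose symbols name a sodium channel alpha or beta subunit or a calcium channel alpha1, alpha2delta or beta subunit, with *Scn4b* left out. The symbol pattern also missed *Scn2a1*, the older symbol of the sodium channel gene *Scn2a*, so its values are given beside the members without counting it among them. All 6 libraries came from male C57BL/6J mice at postnatal day 14, with 3 libraries labelled Chrdl1 KO and 3 labelled WT. Tissue was taken after perfusion with fixative, and libraries were made from messenger RNA. *Chrdl1* encodes a secreted protein of astrocytes that binds bone morphogenetic proteins, and the comparison asks what differs in the cortex without it. The labels do not say how the allele was made. Nor do they tie libraries to individual animals, so a p-value here weighs only library-to-library spread, which may be technical.

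Voltage-gated sodium channels open when a neuron is depolarised and carry the current of the action potential. Each is built around 1 large alpha subunit, which forms the pore, with beta subunits that span the membrane once and tune gating and adhesion. Voltage-gated calcium channels have an alpha1 subunit of the same design, an intracellular beta subunit and an extracellular alpha2delta subunit that help it reach the membrane. They turn depolarisation into calcium entry, which triggers transmitter release at terminals (P/Q and N types), drives gene regulation (L type) and shapes rhythmic firing (T type). In the developing cortex the sodium channel alpha subunits change over, with *Scn3a* prominent early and *Scn1a* and *Scn8a* later.

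The libraries held an estimated 22.7 to 38.2 M mapped reads (M, 1e6 reads), with 33.2 ± 5.41 M in WT and 27.0 ± 4.67 M in KO (SD, n = 3 each). *Chrdl1* itself gave 3.65, 3.57 and 3.09 FPKM in the WT libraries (replicates 1, 2 and 3, the order used throughout) against 0.172, 0.190 and 0.120 for KO, so each library goes with its label. FPKM (fragments per kilobase of exon per 1e6 mapped reads) is scaled by exon length, and levels are compared between genes on that scale. The scaling left a trend with gene length that differed between libraries, described below. Orders, ratios and sums that mix short and long genes can therefore shift with the library. General neuronal markers (*Snap25*, *Syt1*, *Rbfox3* and *Stmn2*) summed to 1757 to 1935 FPKM in WT and 1772 to 1895 in KO. Other lists varied more. Markers of striatal neurons (9 genes) summed to 302, 283 and 258 FPKM in WT and to 129, 297 and 132 in KO. Oligodendrocyte markers (4 genes, each with a log2 fold change under 0) summed to 1462, 1969 and 2438 FPKM in WT and to 1128, 2257 and 1712 in KO. Meningeal fibroblast markers (5 genes, 4 with a log2 fold change above 0 and 1 below) summed to 39.4 to 43.4 FPKM in WT and to 44.6 to 55.4 in KO, with no overlap. Singly, the KO and WT values of *Dcn*, *Col1a1* and *Lum* overlapped and those of *Col1a2* and *Fmod* did not, where 2.95% of all tested genes were separate. None of these marker genes was called, and their part in the channel gene values was not tested.

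No channel gene differed between the genotypes beyond the spread of the libraries. Of the 30 members, 21 had a mean of 1 FPKM or more and entered the test (limma on log2(FPKM + 1)), and 0 of these 21 passed an adjusted p of 0.05 (Benjamini-Hochberg), where 0.00777% of the 12863 tested genes did. None of the 21 had an unadjusted p under 0.05 either (0.630% of all genes), the smallest being 0.289 for *Cacnb2*. The 3 KO and 3 WT values overlapped for every tested member, whereas they were separate for 2.95% of all tested genes. Fold changes ran from -0.08 for *Cacnb4* to 0.13 for *Cacnb2* (log2, KO minus WT), with 11 members above 0 and 10 below (53.8% of all tested genes were above 0), and a median of 0.01 for the members and 0.01 for all tested genes.

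The limits on a difference were narrow. The 95% intervals of all 21 tested members lay within 1.5-fold of no change on the log2(FPKM + 1) scale, as did those of 95.9% of all tested genes, and the widest, that of *Cacnb4*, reached 1.39-fold. Libraries carry a number (1, 2 or 3) in their titles that is shared between a KO and a WT library, and libraries of the same number deviated together over all genes. With that number as a replicate block, 0 of the 21 were called (0.00777% of all genes) and 0 had an unadjusted p under 0.05 (3.91%), the smallest being 0.0956 for *Scn2b*. The widest blocked interval among the 21 reached 1.24-fold. Within the pairs, KO was higher in 3 of 3 for *Scn2b* alone among the 21 (12.3% of all genes) and lower in 3 of 3 for *Scn3a* and *Cacnb4* (9.59%).

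**Figure D1:**
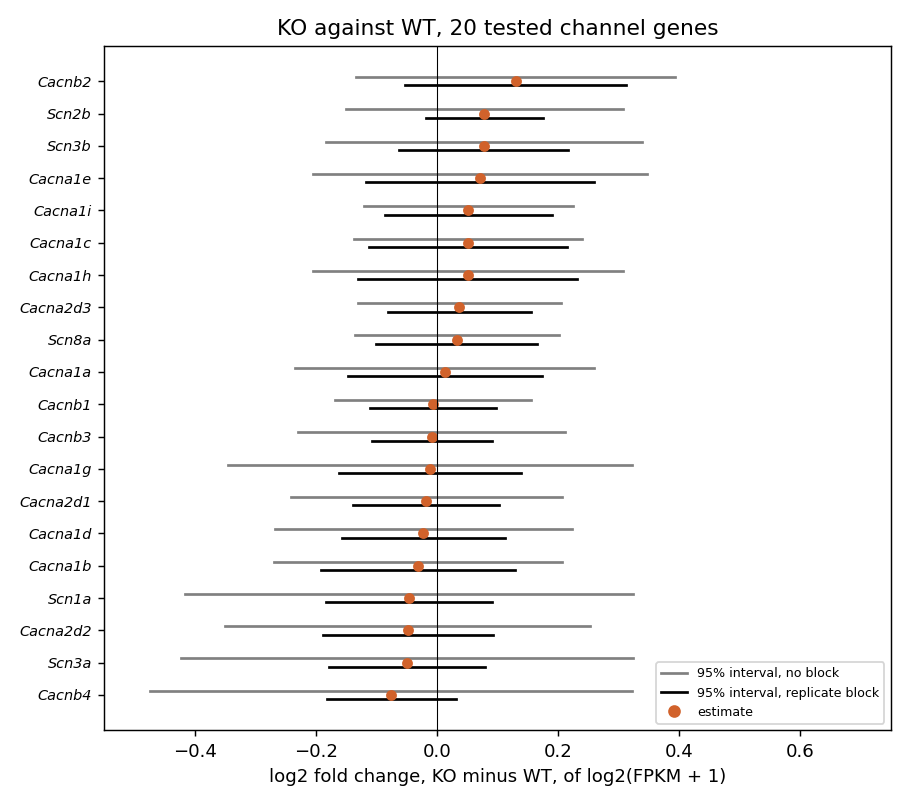
Log2 fold change of 20 tested channel genes, KO minus WT, on the log2(FPKM + 1) scale, with the estimate as a point and 95% intervals without (grey) and with (black) the replicate block. Every interval includes 0, and estimates run from -0.08 to 0.13.

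The members covered a wide span of levels. *Cacnb3* stood at 83.6 ± 6.54 FPKM over the 6 libraries (SD), above *Scn3b* in each of them. *Scn3b*, *Scn2b*, *Cacnb1*, *Cacna2d1* and *Cacna2d3* lay close together between 38.9 and 47.7 FPKM, and their ranges overlapped from each to the next. Of the 29 neighbouring pairs in the order, 7 had ranges that did not overlap, among them *Cacnb3* over *Scn3b*, *Cacna2d3* over *Cacnb4* (38.9 and 27.8 FPKM) and *Cacna1a* over *Cacna1b* (21.9 and 13.7 FPKM). *Cacna1d*, at 4.72 FPKM, was the lowest of the 21 members above 1 FPKM, and the other 9 were below 1 FPKM.

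**Figure D2:**
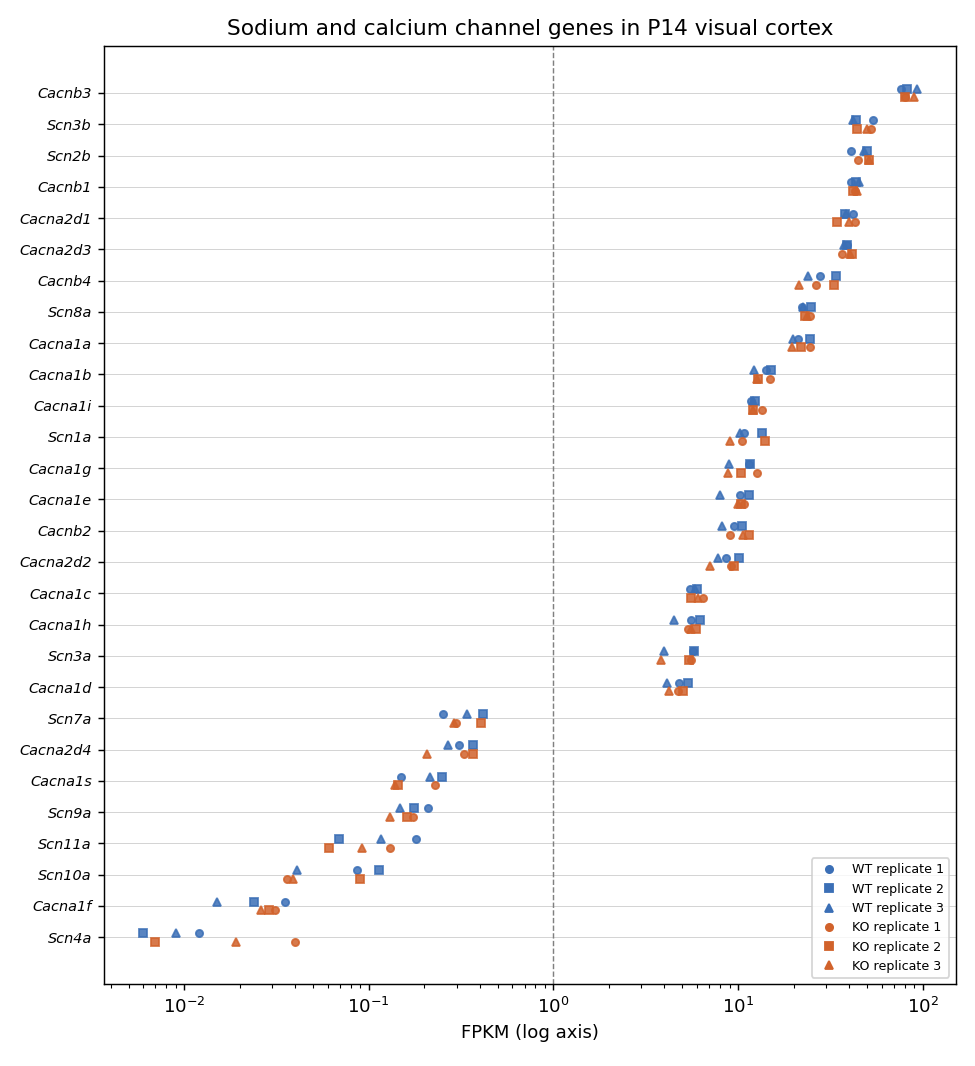
FPKM (log axis) of 28 channel genes in each library, with WT in blue, KO in orange and marker shape for the replicate number. The dashed line is 1 FPKM, and 8 of the genes shown, from *Scn7a* down to *Scn4a*, lie below it in every library.

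Among the pore-forming sodium channel subunits, *Scn8a*, which encodes the main channel of mature axon initial segments and nodes, was the most abundant member. It measured 22.2, 24.9 and 22.6 FPKM in WT and 24.6, 23.1 and 23.7 in KO, with a log2 fold change of 0.03 (95% interval -0.14 to 0.20). The values interleave, and *Scn8a* had the third-smallest spread of the tested members (coefficient of variation 4.63%). *Scn2a1*, which encodes the alpha subunit of early axon initial segments and lies outside the rule, stood higher in every library, at 41.8, 45.0 and 38.0 FPKM in WT and 47.0, 39.3 and 40.3 in KO. Its level was 1.68 to 1.91 times that of *Scn8a* within each library.

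*Scn1a*, the alpha subunit that cortical parvalbumin interneurons rely on, measured 10.8, 13.4 and 10.3 FPKM in WT and 10.6, 14.0 and 9.01 in KO. The high libraries were those numbered 2 in both genotypes, and the log2 fold change was -0.05 (95% interval -0.42 to 0.32, and -0.18 to 0.09 with the block). *Scn3a*, the alpha subunit of the fetal and newborn brain, measured 5.67, 5.78 and 3.98 FPKM in WT and 5.56, 5.42 and 3.83 in KO, so that both libraries numbered 3 were low. Its log2 fold change was -0.05 (95% interval -0.42 to 0.32), and with the block the interval was -0.18 to 0.08. The ratio of *Scn1a* to *Scn3a* was 1.90, 2.32 and 2.58 in WT and 1.90, 2.59 and 2.35 in KO. KO and WT were level in the pair numbered 1, KO was above in number 2 and below in number 3. With *Scn2a1* counted in, sodium alpha transcripts summed to 82.9 ± 7.42 FPKM in WT and 83.3 ± 5.46 in KO, and to 41.3 ± 3.99 and 41.0 ± 3.32 over the 9 members alone (SD, n = 3).

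Several of these genes sit in clusters, and those of the chromosome 2 cluster differ widely in level. On chromosome 2 (mm10), *Scn3a* (65457118 to 65567492, minus strand), *Scn2a1* (65670445 to 65767447, plus strand), *Scn1a* (66270782 to 66440837, minus), *Scn9a* (66480081 to 66634962, minus) and *Scn7a* (66673426 to 66784910, minus) follow each other within 1328 kb. *Scn1a* and *Scn9a*, 39.2 kb apart, stood at 11.4 and 0.166 FPKM. On chromosome 9, *Scn10a* (119608456 to 119719032) and *Scn11a* (119753765 to 119825456) lie 34.7 kb apart on the minus strand, and both were below 1 FPKM.

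The beta subunits *Scn2b* and *Scn3b* were close in level. *Scn2b*, which encodes beta2, measured 40.9, 50.2 and 48.0 FPKM in WT and 44.6, 51.2 and 51.0 in KO. It was higher in KO in each pair, by 1.09, 1.02 and 1.06 times, with a log2 fold change of 0.08 (95% interval -0.15 to 0.31, and -0.02 to 0.17 with the block). *Scn3b*, which encodes beta3, measured 53.8, 43.7 and 41.8 FPKM in WT and 52.7, 44.1 and 49.8 in KO (log2 fold change 0.08, 95% interval -0.18 to 0.34), with both libraries numbered 1 above the rest.

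The calcium channel alpha1 subunits summed to 84.6 ± 8.72 FPKM in WT and 85.6 ± 7.06 in KO. Presynaptic types led. *Cacna1a*, the P/Q-type pore, measured 21.2, 24.5 and 19.8 FPKM in WT and 24.4, 21.9 and 19.7 in KO (log2 fold change 0.01, 95% interval -0.23 to 0.26). *Cacna1b*, the N-type pore, measured 14.2, 15.1 and 12.1 FPKM in WT and 14.97, 12.8 and 12.7 in KO (log2 fold change -0.03, 95% interval -0.27 to 0.21), and *Cacna1a* exceeded it 1.49 to 1.71 times in each library. *Cacna1e*, the R-type pore, stood at 9.92 ± 1.74 and 10.4 ± 0.371 FPKM, with WT replicate 3 lowest at 8.02. Neither order nor level separated the genotypes for these 3 genes.

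The low-voltage-activated T-type pores were next by summed FPKM. Singly, *Cacna1i* and *Cacna1g* had higher means than the R-type *Cacna1e* (12.3, 10.7 and 10.1 FPKM over the 6 libraries). *Cacna1i* stood at 12.1 ± 0.299 FPKM in WT, 12.6 ± 0.863 in KO, *Cacna1g* at 10.7 ± 1.55 and 10.6 ± 1.94, and *Cacna1h* at 5.44 ± 0.875 and 5.63 ± 0.284 (SD, n = 3 each), with log2 fold changes of 0.05, -0.01 and 0.05. *Cacna1i* stayed within 11.8 to 12.4 FPKM in 5 libraries and reached 13.5 in KO replicate 1. The L-type pores, which couple activity to transcription, were the lowest expressed group. *Cacna1c* measured 5.79 ± 0.270 and 6.04 ± 0.451 FPKM and *Cacna1d* 4.77 ± 0.629 and 4.67 ± 0.430, with log2 fold changes of 0.05 and -0.02. As shares of the summed alpha1 FPKM, the P/Q, N and R types took 53.8% ± 1.04 in WT and 53.6% ± 0.170 in KO, the T types 33.4% ± 0.762 and 33.6% ± 0.232, and the L types 12.8% ± 0.610 and 12.8% ± 0.400 (SD, n = 3).

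Of the auxiliary calcium channel subunits, *Cacna2d1* and *Cacna2d3* dominated the alpha2delta family. *Cacna2d1*, whose product also binds gabapentin and the astrocyte-secreted thrombospondins, measured 42.0, 37.9 and 38.4 FPKM in WT and 43.1, 34.3 and 39.9 in KO (log2 fold change -0.02, 95% interval -0.24 to 0.21). *Cacna2d3* measured 38.9, 38.9 and 37.3 FPKM in WT and 36.6, 41.4 and 40.2 in KO (log2 fold change 0.04, 95% interval -0.13 to 0.20). Which of these 2 was higher differed between libraries, with *Cacna2d1* above in 3 of 6. *Cacna2d2* was lower, at 8.89 ± 1.19 and 8.58 ± 1.34 FPKM. The family summed to 87.0 ± 3.003 FPKM in WT and 87.4 ± 1.87 in KO.

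The intracellular beta subunits summed to 165 ± 9.51 FPKM in WT and 164 ± 4.50 in KO. *Cacnb3* measured 76.1, 82.7 and 93.1 FPKM in WT and 80.04, 79.9 and 90.0 in KO, again with both libraries numbered 3 highest (log2 fold change -0.01, 95% interval -0.23 to 0.21). *Cacnb1* was the steadiest member, from 40.8 to 45.5 FPKM (coefficient of variation 3.82%). *Cacnb4*, whose loss causes ataxia and seizures in the lethargic mouse, measured 27.8, 33.8 and 23.9 FPKM in WT and 26.6, 33.3 and 21.5 in KO. Each KO library was lower than the WT library of its number, by ratios of 0.956, 0.987 and 0.900, and the numbers differed far more than the genotypes. The log2 fold change was -0.08 (95% interval -0.47 to 0.32, and -0.18 to 0.03 with the block). *Cacnb2* had the largest estimate of the tested members, at 9.54, 10.48 and 8.19 FPKM in WT and 9.06, 11.5 and 10.6 in KO (log2 fold change 0.13, 95% interval -0.13 to 0.39). KO was lower than WT in the pair numbered 1 and higher in the others. On the opposite strand, 3 other genes share exon sequence with *Cacnb2* (111, 239 and 618 bp), and another gene does with *Cacnb4* (1433 bp). Reads there may not be separable.

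*Scn2b* has a close neighbour in *Scn4b*, which encodes the beta4 subunit and which the rule leaves out. *Scn4b* measured 13.9, 11.7 and 9.002 FPKM in WT and 2.20, 15.05 and 2.47 in KO, so KO replicates 1 and 3 were low and KO replicate 2 was the highest library of all. The summed striatal markers given above had the same low libraries, KO replicates 1 and 3, and all 9 of those genes had a log2 fold change under 0, with none at 0 FPKM in any library. Their part in the *Scn4b* values was not tested. In bulk tissue, fewer cells of a type and less RNA per cell cannot be told apart. *Scn2b* lies only 8.97 kb before *Scn4b* on the plus strand of chromosome 9 (45117876 to 45130070 and 45139042 to 45154061, mm10), and its values varied 1.252-fold over the 6 libraries where those of *Scn4b* varied 6.84-fold.

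**Figure D3:**
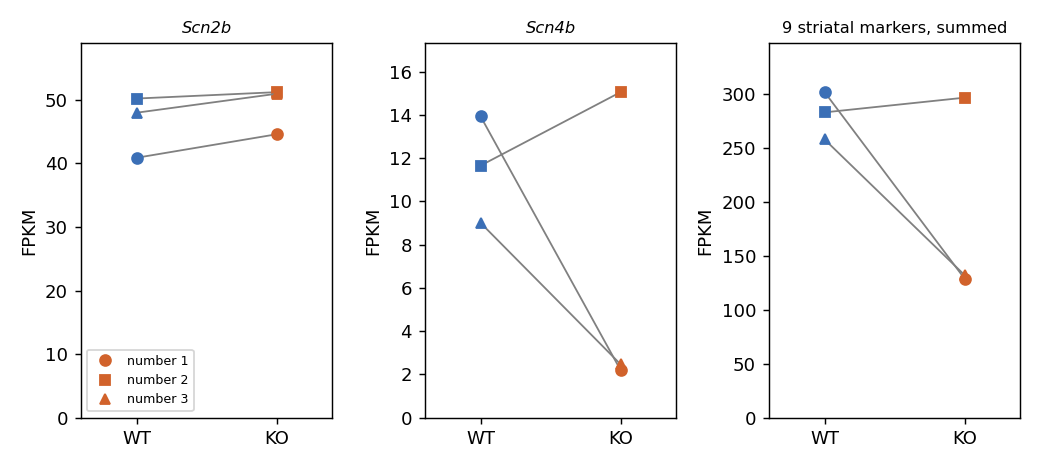
FPKM of *Scn2b* and *Scn4b* and the sum of 9 striatal markers in WT (blue) and KO (orange), with lines joining libraries of the same title number. *Scn4b* and the markers are low in KO replicates 1 and 3 only, and *Scn2b* stays between 40.9 and 51.2 FPKM.

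Of the 9 members below the filter, 8 are described here, most of them known from other tissues. *Scn4a* and *Cacna1s*, the skeletal muscle channels, stood at 0.006 to 0.040 and 0.138 to 0.249 FPKM. *Scn9a*, *Scn10a* and *Scn11a*, which serve peripheral sensory neurons, stood at 0.131 to 0.209, 0.036 to 0.114 and 0.061 to 0.180 FPKM, and *Cacna1f*, the photoreceptor L-type pore, at 0.015 to 0.035. *Scn7a*, which encodes an atypical sodium-sensing channel, reached 0.251 to 0.414 FPKM, and *Cacna2d4* 0.206 to 0.368. *Scn4a* rested on 1 to 7 reads per library and *Cacna1f* on 3 to 8, so no fold is given for them. Of the markers listed for the matching cells, *Mrgprd* of sensory neurons was at 0 in all 6 libraries and *Crx* of photoreceptors reached at most 0.027 FPKM, but *Prph*, listed with sensory neurons, stood at 2.71 to 4.60 and *Acta1*, listed with skeletal muscle, at 4.66 to 6.73. Within the number pairs, KO was lower in 3 of 3 for *Scn9a* (KO to WT ratios 0.833, 0.926 and 0.891), *Scn10a* (0.419, 0.789 and 0.951) and *Scn11a* (0.728, 0.884 and 0.793), while the KO and WT values of each overlapped. These 3 genes rested on 6 to 78 reads per library. In the other direction, KO was higher in 3 of 3 for *Scn4a*, on its 1 to 7 reads. Of the 12863 tested genes, which leave out these 8, KO was lower in 3 of 3 for 9.59% and higher for 12.3%. Fitted without a filter, none of these 8 was called (limma adjusted p of 0.99996 for each). With a pseudocount of 0.1 and the replicate block, a fit added after seeing the data, *Scn9a*, *Scn10a* and *Scn11a* had unadjusted p of 0.489, 0.252 and 0.313 and an adjusted p of 0.994 each (limma).

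Most of the spread among channel genes lay between title numbers, with little between genotypes, as it did over all tested genes. Number has more levels than genotype, so it would tend to hold the larger share even where neither had an effect. Over the 21 tested members, a median of 72.6% of the sum of squares of log2(FPKM + 1) lay between numbers and 2.34% between genotypes, against 77.3% and 3.67% over all tested genes. Number held over 50% in 16 of the 21 (76.3% of all tested genes), with *Scn3a* (98.2%), *Cacnb4* (95.9%) and *Cacna1d* (95.6%) at the top. *Scn8a* (14.0%), *Cacna1i* (17.2%) and *Cacna1c* (5.05%) had the lowest shares.

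The libraries numbered 3 stood apart in a way that followed gene length, with exceptions among the members. Both were below the other 4 for 9 of the 21 (20.4% of all tested genes), namely *Scn1a*, *Scn3a*, *Cacna1a*, *Cacna1b*, *Cacna1d*, *Cacna1e*, *Cacna1g*, *Cacna2d2* and *Cacnb4*. They were above the other 4 for 3 of the 21 (17.6% of all), *Cacnb1* and *Cacnb3* among them. The 9 low genes have 5472 to 12648 bp of exon, and *Cacnb1* and *Cacnb3* have 3373 and 2553 bp. The same trend held over the 12863 tested genes: WT replicate 3 against WT replicate 2 had a median difference of 0.19 (log2) in 4061 genes under 2000 bp and -0.23 in 517 genes of 8000 bp or more, and KO replicate 3 against KO replicate 2 had 0.11 and -0.10. Of the 13 tested members of 6000 bp or more, 8 were lowest in both libraries numbered 3, where 43.9% of the 1334 tested genes of that length were. Against replicate 2, replicate 3 was lower in both genotypes for 9 of the 13 and higher in both for *Cacna2d1* (7375 bp). *Cacna1c* (12612 bp), *Scn8a* (11213 bp) and *Cacna1i* (9755 bp) were lower in WT and 1.08, 1.02 and 1.01 times as high in KO. Of the 8 tested members under 6000 bp, replicate 3 was lower in both genotypes for 4 and higher in both for 3. Both libraries numbered 2 were above the other 4 for 5 of the 21 (19.4% of all), *Scn1a*, *Cacna1d*, *Cacna1h*, *Cacna2d2* and *Cacnb4*. The KO minus WT fold change did not follow length to a like degree, with medians of -0.0037 under 2000 bp and 0.02 from 8000 bp.

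**Figure D4:**
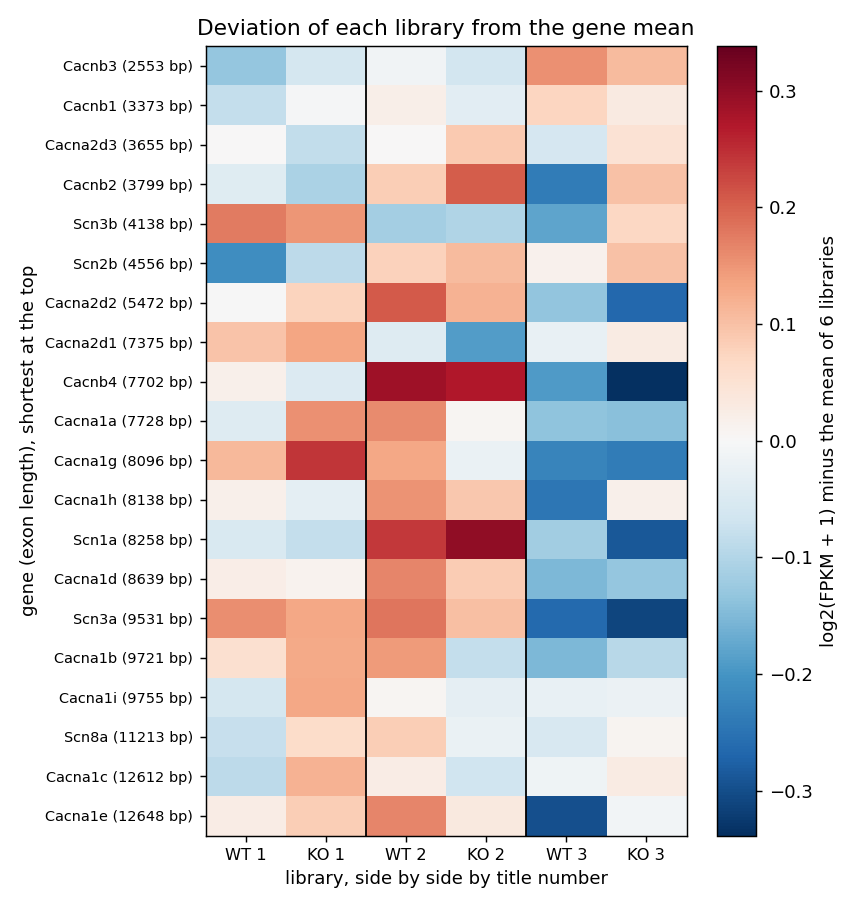
Deviation of each library from the gene's mean over 6 libraries (log2(FPKM + 1), red above and blue below) for 20 tested channel genes, shortest exon length at the top, with WT and KO of each title number side by side. Both libraries numbered 3 are red for *Cacnb3* and *Cacnb1* and are the lowest of the row for 9 longer genes.

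Transcripts of genes whose proteins work with these channels were also measured, from lists chosen with earlier results of these data known. Of 20 axon initial segment and node partners of sodium channels, all 20 were tested and 0 were called, with 10 above and 10 below 0 and a median log2 fold change of 0.01. Among the 4 smallest unadjusted p-values were those of *Fgf11*, a sodium channel binding factor (8.45 ± 0.441 FPKM in WT and 9.10 ± 0.590 in KO), *Fgf14* (11.8 ± 1.37 and 11.2 ± 0.889) and the node adhesion gene *Nfasc* (40.7 ± 5.60 and 42.6 ± 5.26). Of 26 calcium channel partners, 21 were tested and 0 called, with 10 above and 11 below 0 and a median of -0.02. They were led by *Stac2* (12.6 ± 2.01 and 11.4 ± 1.495 FPKM, limma unadjusted p 0.372, and 0.0343 with the block, where the adjusted p was 0.999), the calcium sensor *Cabp1* (68.99 ± 12.4 and 63.4 ± 4.98), *Cachd1* (2.396 ± 0.492 and 2.60 ± 0.186) and *Cacng8* (34.3 ± 2.47 and 36.3 ± 4.77). The sodium leak channel complex had 4 tested genes and 0 called. *Nalcn*, its pore, stood at 17.7 ± 1.505 and 17.7 ± 0.478 FPKM, with *Fam155a*, *Unc79* and *Unc80* at log2 fold changes of 0.08, -0.05 and -0.05.

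Channel genes of similar level differed in the sequence before their start. RefSeq promoter windows (GRCm38.p6, the assembly of mm10) begin at the start of the authors' gene model for 21 of the 30 members, and the 250 bases before the start were compared. Shown are *Cacna2d1* and *Scn2b*, which are close in level (39.3 and 47.6 FPKM) but far apart in CpG content, and *Scn11a* (0.108 FPKM), with each CpG in capitals.
Cacna2d1, chr5:15934441-15934690, plus strand: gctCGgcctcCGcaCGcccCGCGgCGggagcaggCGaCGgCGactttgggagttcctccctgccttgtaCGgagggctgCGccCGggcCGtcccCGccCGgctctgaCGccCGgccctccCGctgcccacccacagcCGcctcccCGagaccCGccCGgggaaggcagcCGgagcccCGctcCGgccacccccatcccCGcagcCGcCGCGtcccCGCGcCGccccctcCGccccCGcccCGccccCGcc
Scn2b, chr9:45117626-45117875, plus strand: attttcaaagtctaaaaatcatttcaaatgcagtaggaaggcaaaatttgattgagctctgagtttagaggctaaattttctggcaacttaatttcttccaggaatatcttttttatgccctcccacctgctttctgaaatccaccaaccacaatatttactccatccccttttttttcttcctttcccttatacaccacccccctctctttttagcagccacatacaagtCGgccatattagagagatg
Scn11a, chr9:119825457-119825706, minus strand: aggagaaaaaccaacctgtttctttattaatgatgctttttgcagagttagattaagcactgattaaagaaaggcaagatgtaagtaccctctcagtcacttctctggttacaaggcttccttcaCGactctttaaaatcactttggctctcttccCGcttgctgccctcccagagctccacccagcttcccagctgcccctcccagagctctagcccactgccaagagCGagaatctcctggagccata
These hold 36, 1 and 3 CpG. In the 15 matched members above 1 FPKM the count ran from 1 to 36 with a median of 9, and in the 6 matched members below it from 3 to 8 with a median of 4, against a median of 6 over 32851 windows of the table. The counts of members above 1 FPKM fell apart into 7 genes with 16 or more (*Cacna1b*, *Cacna1i*, *Cacna2d1*, *Cacna2d2*, *Cacna2d3*, *Cacnb1* and *Cacnb4*) and 8 with 9 or fewer, which include *Scn1a*, *Scn2b*, *Scn8a* and *Cacnb3*. All 7 are calcium channel genes, and only 3 of the 15 are sodium channel genes. Over all windows, 25.4% hold more than 15 CpG. The split at 15 CpG was chosen after the counts were seen. The letters GGGCGG on either strand, the core of a GC box, occur in 7 of the 21 windows and in 32.7% of all windows, and TATAAA on either strand in 1, that of *Cacna1d*, and in 12.4% of all. Several members have further start sites that these windows do not cover, so the counts describe only the start used for the deposited values.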

How the data were processed

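Per the file headers, the authors deposited 1 table of FPKM values made with HOMER's analyzeRepeats.pl on mm10, counting reads over exons with the transcripts of a gene condensed to 1 row and replicates kept separate. The tools named are FastQC, HOMER 4.8.3 and STAR 2.4.0k, per the submitters' processing notes. The labels name a stranded kit, but the header names no strand option, so opposite-strand overlaps are uncertain. Exons of 9 members overlap another gene in GENCODE M21, each on the opposite strand. The longest overlaps are those of *Cacnb4* (1433 bp) and *Cacna1s* (1309 bp). Read totals were recovered from the FPKM steps, with 100% of the checked values whole within 0.1 read. They give counting precision only.

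The test was limma 3.58.1 (R 4.3.3), 2-sided, on log2(FPKM + 1) with an intensity trend, over 12863 genes (mean FPKM of at least 1), Benjamini-Hochberg adjusted over all of them. It was tested on simulated data, with spread drawn from the replicate block fit and changes set only in genes well above the filter. That run does not cover members near or below the filter. Python 3.11.15, numpy 2.4.6, pandas 2.3.3 and matplotlib 3.10.9 were also used. Of each partner list, called genes and the 4 with the smallest unadjusted p were to be named. The single values of 2 members and 1 partner gene are not reported here; they stay in the counts, sums and medians. Members and lists were chosen with earlier results of these data known. Libraries sharing a title number deviated together (correlation over tested genes 0.43 to 0.71, against -0.61 to -0.06 for other pairings), so a replicate block was run beside the main fit. Other pseudocounts, filters, scalings, limma-voom on recovered reads and leaving out each library were tried.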

Additional observations from a re-analysis of the deposited data

How the results depend on the processing

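The count of channel genes called was 0 under each of 18 other settings, and the lowest adjusted p of a tested member was 0.994 (limma). With the number as a replicate block 0 channel genes and 1 gene in all were called, as without it, and no call on a channel gene changed. The count over all genes was 1 in the main fit, 2 with a pseudocount of 0.1, 6 without a filter, 2 with the block and a pseudocount of 0.1, 2 with limma-voom and the block, 13 and 8 without a filter at a pseudocount of 0.1 (without and with the block, added after seeing the data), and 1 to 4 leaving out 1 library, the highest being without KO replicate 2. Of 240 fold changes of the 20 tested members reported singly, under settings that keep all libraries, 240 kept their sign. Outside limma-voom, changing the filter, adding the replicate block or dropping the intensity trend cannot move an estimate in this balanced design. The signs under such settings were fixed in advance and give no support. Leaving out 1 library turned the sign in 32 of 120 values, over 15 genes, none called. Their log2 ranges were -0.0612 to 0.0957 (*Cacna1a*), -0.12 to 0.0324 (*Cacna1b*), -0.10 to 0.0539 (*Cacna1d*), -0.0603 to 0.17 (*Cacna1e*), -0.14 to 0.10 (*Cacna1g*), -0.0585 to 0.14 (*Cacna1h*), -0.000235 to 0.0804 (*Cacna1i*), -0.0888 to 0.072 (*Cacna2d1*), -0.13 to 0.0726 (*Cacna2d2*), -0.0493 to 0.0278 (*Cacnb1*), -0.076 to 0.0675 (*Cacnb3*), -0.23 to 0.0746 (*Cacnb4*), -0.21 to 0.0861 (*Scn1a*), -0.00751 to 0.14 (*Scn2b*) and -0.19 to 0.0923 (*Scn3a*). Members under 1 FPKM rest on few reads, which limits what can be detected in them.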
